A study of Mus musculus with 4 samples.

Results

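A set of purine breakdown and uptake genes, 7 of the 27573 genes shared by the gene tables, were described across the cell classes of mouse small intestinal adenomas: Entpd8, Enpp3, Nt5e, Slc28a2, Ada, Pnp and Xdh. They were chosen from their measured levels and joint detection in these cells, as genes high in enterocytes, so their pattern across the cell classes and along the villus-tip score is a description and carries no test. Single cells came from adenomas of C57BL/6 mice aged 11 weeks, all labelled male. They were sequenced with droplet 3′ single-cell RNA-seq (10x Genomics), which counts each captured mRNA once as a unique molecular identifier (UMI). ApcMin mice carry the Min allele of Apc and 2 normal Lef1 alleles (ApcMin/+;Lef1 +/+). VApcMinL mice carry the same Apc allele, floxed Lef1 alleles and Villin-Cre (ApcMin/+;Lef1 fl/fl; Villin-Cre). Both groups therefore carried ApcMin, and no library came from intestine without it. Villin-Cre acts in intestinal epithelium and not in blood cells, so immune cells of VApcMinL mice keep their Lef1 alleles. Each group had 2 libraries. The libraries numbered 1 used reagent kit version 2, and those numbered 2 used version 3. Each library pooled several tumors with no sorting of cells, and the labels do not say how many mice it held, so p-values measure only the spread between these libraries. Values of the 4 libraries are given throughout in the order ApcMin 1, VApcMinL 1, ApcMin 2 and VApcMinL 2.

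Purines reach the gut lumen and the intercellular space as nucleotides, nucleosides and bases. Cell-surface ectonucleotidases strip the phosphates from ATP and other nucleotides, concentrative transporters carry the resulting nucleosides into the enterocyte, and cytosolic enzymes convert adenosine through inosine and hypoxanthine to xanthine and urate. Entpd8 (ENSMUSG00000036813) cleaves extracellular ATP and ADP. Enpp3 (ENSMUSG00000019989) is an ectonucleotide pyrophosphatase and phosphodiesterase. Nt5e (ENSMUSG00000032420), or CD73, converts extracellular AMP to adenosine. Slc28a2 (ENSMUSG00000027219) is a sodium-coupled carrier of purine nucleosides. Ada (ENSMUSG00000017697) deaminates adenosine to inosine, Pnp (ENSMUSG00000115338) splits inosine to hypoxanthine, and Xdh (ENSMUSG00000024066) oxidizes hypoxanthine and xanthine. Enterocytes mature as they move from the crypt up the villus and are shed at its tip, and Ada and Nt5e are known as genes of the upper villus.

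The genes lie apart in the GRCm38 genome. Ada (chromosome 2, 163726584 to 163750239, minus strand), Slc28a2 (chromosome 2, 122426477 to 122461137, plus strand) and Entpd8 (chromosome 2, 25080304 to 25085716, plus strand) share a chromosome. Nt5e is on chromosome 9 (88327197 to 88372092, plus strand), Enpp3 on chromosome 10 (24772406 to 24842823, minus strand), Pnp on chromosome 14 (50931082 to 50965237, plus strand) and Xdh on chromosome 17 (73883895 to 73950196, minus strand). The promoters of Ada, Slc28a2, Nt5e and Enpp3 are printed because these 4 genes had the steepest rise along the villus-tip score described further on. Each window runs from 250 bases before to 50 bases after the RefSeq start on GRCm38.p6, 5′ to 3′ on the gene's own strand: Ada at chr2:163750190-163750489 (minus), Slc28a2 at chr2:122426185-122426484 (plus), Nt5e at chr9:88327359-88327658 (plus) and Enpp3 at chr10:24836146-24836445 (minus). Capitals mark matches to any of 4 motifs searched on both strands, namely the HNF4 motif CAAAGTCCA, the motif AGATAA of GATA factors, the motif TTTATG of CDX factors and the HNF1 palindrome.
Ada: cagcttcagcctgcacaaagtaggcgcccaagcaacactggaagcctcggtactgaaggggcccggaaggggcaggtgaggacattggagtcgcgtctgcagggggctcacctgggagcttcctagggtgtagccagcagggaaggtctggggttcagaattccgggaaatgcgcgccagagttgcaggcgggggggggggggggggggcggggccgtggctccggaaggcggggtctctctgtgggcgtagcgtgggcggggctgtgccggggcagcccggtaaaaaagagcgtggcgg
Slc28a2: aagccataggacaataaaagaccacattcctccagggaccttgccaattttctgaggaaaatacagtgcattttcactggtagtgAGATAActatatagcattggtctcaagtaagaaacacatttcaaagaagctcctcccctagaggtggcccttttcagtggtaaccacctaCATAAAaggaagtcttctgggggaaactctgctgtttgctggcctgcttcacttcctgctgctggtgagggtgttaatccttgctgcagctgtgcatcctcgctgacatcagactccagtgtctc
Nt5e: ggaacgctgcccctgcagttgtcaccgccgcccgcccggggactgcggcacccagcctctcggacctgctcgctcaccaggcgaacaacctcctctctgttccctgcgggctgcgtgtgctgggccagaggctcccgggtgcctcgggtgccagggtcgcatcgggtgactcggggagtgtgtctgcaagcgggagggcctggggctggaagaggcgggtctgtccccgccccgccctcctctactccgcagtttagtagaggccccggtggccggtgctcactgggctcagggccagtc
Enpp3: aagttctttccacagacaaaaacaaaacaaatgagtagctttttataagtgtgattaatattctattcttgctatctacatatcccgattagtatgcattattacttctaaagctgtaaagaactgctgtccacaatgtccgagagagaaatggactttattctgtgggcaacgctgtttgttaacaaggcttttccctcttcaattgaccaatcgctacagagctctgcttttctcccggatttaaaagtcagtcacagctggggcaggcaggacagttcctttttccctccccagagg
The 4 windows differed widely in base composition. GC content was 68.0% with 20 CpG in Ada and 71.0% with 23 CpG in Nt5e, but 46.7% with 1 CpG in Slc28a2 and 40.7% with 5 CpG in Enpp3. Over all 32851 promoter windows the median was 52.7% GC and 7 CpG. Slc28a2 held the AGATAA match at bases 86 to 91 of the window and a TTTATG match on the minus strand, read as CATAAA, at bases 176 to 181. AGATAA occurred in 11.2% and TTTATG in 11.9% of all windows. None of the 6 member promoters in the table (Xdh is not in it) matched CAAAGTCCA, found in 0.475% of all windows, or the HNF1 palindrome, found in 0.00913%. A match is a stretch of letters and not a measured binding site.

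The tables held 2472, 2537, 2071 and 4217 cells with at least 2000 UMIs and at most 20% mitochondrial UMIs, and median depths of 10880, 12407, 26205 and 20859 UMIs. The mitochondrial limit removed 61.6% of the deep barcodes of ApcMin 2, against 20.4 to 26.5% in the other libraries. Cells were assigned to classes by the summed level of fixed marker lists, which hold none of the 7 genes. The enterocyte gate held 336, 743, 1017 and 677 cells, the immature absorptive gate 234, 288, 145 and 312, the adenoma gate 459, 469, 305 and 1838, and the immune gate 549, 378, 155 and 250. The enterocyte list made up 543 to 690 per 10000 UMIs in its own gate, 38.9 to 56.9 in the immature absorptive gate and 3.70 to 10.4 in the adenoma gate. The adenoma list (Notum, Nkd1, Wif1, Dkk3, Prox1, Axin2) was at 5.22, 19.8, 17.9 and 6.18 in its own gate. The paper reports these genes as lower in adenoma cells after Lef1 deletion, in mice that lost Apc in Lgr5-positive cells. Whether the adenoma gate picked like cells in both groups was not tested. The immature absorptive list was not highest in its own gate in every library (83.6, 78.9, 128 and 137 per 10000, against 117, 75.8, 89.2 and 145 in enterocytes), so that gate is marked by its low enterocyte list as much as by its name. Of the enterocytes, 74 (2.67%) lay just above the threshold, between 150 and 187.5 per 10000. The libraries labelled ApcMin 1 and VApcMinL 1 shared 9 cell barcodes, where each listed 737280 barcodes. ApcMin 1 and VApcMinL 2 shared 1, and the other pairs shared 0. The number that random draws would share was not computed.

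The labels were checked against the data before any comparison of the groups. Lef1, the deleted gene, was counted at 10.2, 32.7, 41.0 and 24.5 CPM in the adenoma gate (CPM, the UMIs of a gene per 1000000 UMIs of the summed gate), so the libraries labelled VApcMinL were not the lower ones. The difference between the groups was 0.43 on the log2 scale (SE 0.66, n = 2 libraries per group), 1.57 within kit 2 and −0.67 within kit 3. A 3′ count cannot tell a transcript of a floxed gene that has lost an inner exon from an intact one, so Lef1 does not settle the labels. Xist, the RNA of the inactive X chromosome, was counted in the gated cells of the libraries labelled ApcMin at no more than 0.714 CPM, and at 107.9 to 1202 CPM in those labelled VApcMinL. Every library is labelled male, so the label and the Xist counts of the VApcMinL libraries are at odds. Xist level and group go together in both kits, so their parts in a group difference cannot be told apart. Each direction between the groups below is therefore one between libraries labelled ApcMin and libraries labelled VApcMinL.

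All 7 genes were higher in enterocytes than in immature absorptive and adenoma cells in each of the 4 libraries. Levels are compared between cells and not between genes, since no value is divided by gene length. Barcodes with 10 to 100 UMIs, taken as empty droplets, were summed in each library as a reference. In the libraries labelled ApcMin they held 221.7 and 203.3 CPM of Xist, against at most 0.714 in the gated cells. A level under the empty droplets therefore does not by itself mark a count as background. The 7 genes lay above these empty droplets in enterocytes and at or below them in adenoma cells, in all 4 libraries. As a percentage of the empty droplets of the same library, the adenoma level was 4.80 to 7.30% for Slc28a2, 6.83 to 13.8% for Enpp3, 8.38 to 26.4% for Ada and 13.1 to 19.9% for Xdh. It was 10.9 to 44.1% for Nt5e, 18.4 to 67.8% for Entpd8 and 77.5 to 93.6% for Pnp. The percentage of Pnp was above that of the other 6 genes in each library. The part of free RNA in these adenoma counts was not tested. Fewer transcripts per cell and fewer cells of a kind within a gate cannot be told apart in such sums.

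Ada had 237, 1046, 381 and 415 CPM in enterocytes. VApcMinL 1 was the highest library by far, and the other 3 lay within 2-fold of each other. Ada was counted at 16.5, 45.4, 22.7 and 21.9 in immature absorptive cells and at 15.1, 47.9, 26.5 and 21.9 in adenoma cells. These ranges overlap almost entirely, and both lay under the empty droplets, which held 161, 572, 157 and 82.8. VApcMinL 1 was also the highest library in both of these gates and in its empty droplets. The enterocyte level was 14.4 to 21.8 times that of adenoma cells within a library.

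Slc28a2, the purine nucleoside carrier, had 59.7, 175, 94.7 and 63.7 CPM in enterocytes. It had 0.916, 4.21, 2.42 and 4.65 in immature absorptive cells and 1.86, 3.31, 2.83 and 3.30 in adenoma cells, with overlapping ranges. Enterocytes stood 19.3 to 52.9 times above adenoma cells. Slc28a2 shares 73.9% of the 25-base words at the 3′ end of its transcripts with its neighbor Gm14085, so reads from the pair could be hard to assign. Gm14085 itself was counted at 1, 6, 2 and 2 UMIs in all enterocytes.

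The 3 surface enzymes were likewise higher in enterocytes than in adenoma cells. Nt5e had 39.4, 83.0, 64.8 and 54.9 CPM in enterocytes, against 4.01, 3.01, 8.67 and 5.69 in adenoma cells. Enpp3 had 23.0, 96.2, 146 and 95.6 in enterocytes, against 1.21, 2.01, 7.39 and 6.46 in adenoma cells. In Enpp3, ApcMin 1 was the low library and ApcMin 2 the high one, so the 2 ApcMin libraries bracketed the VApcMinL libraries. Entpd8 had 43.2, 65.5, 62.5 and 48.4 in enterocytes, 12.8, 17.2, 28.1 and 19.96 in immature absorptive cells and 7.92, 4.11, 4.47 and 8.24 in adenoma cells. The order enterocyte, immature absorptive, adenoma held for Entpd8 with no overlap between the ranges. Its 3′ end overlaps the gene Noxa1 on the other strand.

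The cytosolic enzymes split into a broad and a narrow one. Pnp had 214, 268, 353 and 282 CPM in enterocytes, 98.2, 111, 214 and 191 in immature absorptive cells and 81.3, 98.7, 164 and 148 in adenoma cells. Its enterocyte level was 1.91 to 2.72 times that of adenoma cells, the smallest ratio of the 7 genes in each library. Pnp lies beside the paralog Pnp2, with which it shares 25.3% of its 3′ end words, and overlaps it in the annotation. Pnp2 was counted at 195, 180, 264 and 172 CPM in enterocytes and at 17.3, 14.1, 17.8 and 20.4 in adenoma cells, a ratio of 8.42 to 14.8. Xdh had 203, 295, 177 and 130 in enterocytes and between 12.2 and 13.3 in the adenoma cells of all 4 libraries. Xdh thus stood 10.1 to 23.4 times above adenoma cells, with nearly no spread at the low end.

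**Figure D1:**
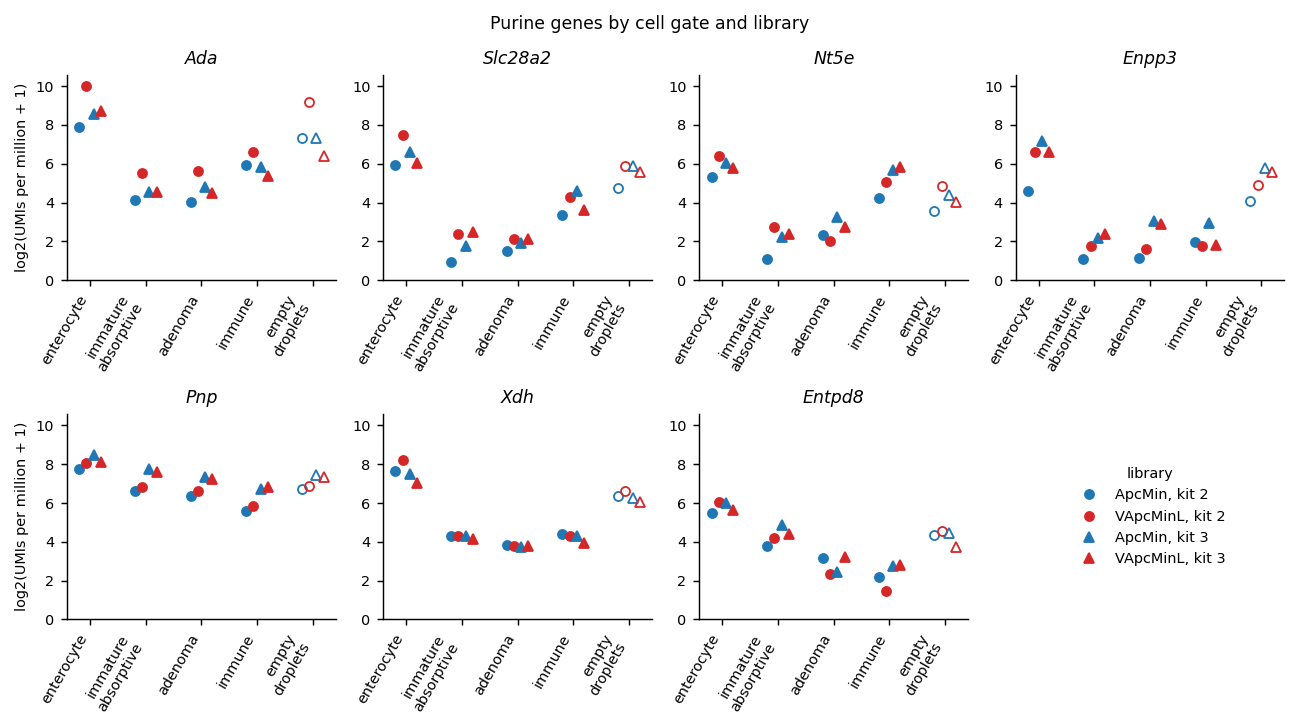
CPM, as log2(value + 1), of each gene (panels) in 4 cell gates and in empty droplets, with 1 point per library (circles kit 2, triangles kit 3, color the group). Enterocytes lie above adenoma and immature absorptive cells for every gene and library, while Nt5e in immune cells (17.5 to 56.2 CPM) reaches the enterocyte range (39.4 to 83.0 CPM).

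The fitted differences put these ratios on a common scale. Counts were summed per library and gate and fitted with edgeR across all genes, with the library as a block. The log2 difference of enterocytes over adenoma cells was 5.66 (SE 0.25) for Slc28a2, 5.14 (0.27) for Enpp3, 4.82 (0.18) for Ada and 4.59 (0.22) for Xdh, with n = 4 libraries. It was 4.195 (SE 0.28) for Nt5e, 3.84 (0.32) for Entpd8 and 1.91 (0.14) for Pnp. The median over all 13159 genes tested was −0.12. Of the members, 6 of 7 passed a log2 difference of 2, against 11.9% of all genes tested, and Pnp fell just short of that line. In all, 76.6% of genes tested were called in this contrast, 35.8% higher and 40.8% lower. Since these levels chose the genes, nothing is read from that count. Ranked by log2 difference, Slc28a2 stood at 274, Enpp3 at 365 and Ada at 411 of 13159 genes, with Pnp at 1671. Many enterocyte genes were thus steeper than the 7 in this contrast. Over immature absorptive cells, the differences ran from 1.28 (Pnp) to 5.34 (Enpp3), and 5 of 7 passed 2, against 6.01% of genes. There, 70.2% of all genes were called, 35.6% higher and 34.6% lower. Entpd8, at 1.87, was the other one below that line. Without the TMM scaling of library sums, the median of all genes moved to −0.82 and Ada to 4.13, Pnp to 1.22.

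Within enterocytes the 7 genes parted into 2 sets along the villus-tip score. Enterocytes of each library were ranked by a list of 6 villus-tip genes (Apoa4, Krt20, Creb3l3, Klf4, Egfr, Clca4a), which holds none of the 7, and divided into tip-low, middle and tip-high parts of equal size. The score sums the UMIs of the list, so it rested mostly on Apoa4. Tip-high cells had 12812, 27243, 15675 and 17340 CPM of Apoa4, against 2213, 3680, 3130 and 2388 of Krt20. Ada rose from 13.9 to 837 CPM between tip-low and tip-high enterocytes in ApcMin 1, from 64.1 to 3175 in VApcMinL 1, from 21.5 to 1286 in ApcMin 2 and from 13.9 to 1523 in VApcMinL 2. The middle part held 48.1, 140, 33.3 and 39.9, so nearly all of the rise lay within the tip-high part. Tip-high cells held 91.1, 93.5, 94.9 and 95.4% of all Ada UMIs of enterocytes.

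Slc28a2 and Nt5e were likewise highest in tip-high cells. Slc28a2 had 214, 485, 328 and 237 CPM in tip-high cells, against 0.632, 7.84, 1.87 and 2.65 in tip-low cells. Nt5e had 141, 233, 222 and 202 in tip-high cells, against 0, 7.30, 2.52 and 2.45 in tip-low cells. The low values of ApcMin 1 rest on 1 UMI of Slc28a2 and on none of Nt5e, so no ratio is given for that library. In the other libraries, tip-high cells stood 61.9 to 175 times above tip-low cells for Slc28a2 and 31.9 to 88.0 times for Nt5e. In the middle part, Slc28a2 had 12.9, 73.0, 5.72 and 3.34 and Nt5e 9.45, 27.4, 4.10 and 3.82, which stood further above the tip-low values in the kit 2 than in the kit 3 libraries. Enpp3 had 74.2, 228, 415 and 302 in tip-high cells, 11.2, 71.3, 77.7 and 44.4 in the middle part and 0.632, 10.5, 7.85 and 4.89 in tip-low cells. Its middle part stood well above its tip-low part in every library, and tip-high cells held 73.0 to 83.5% of its enterocyte UMIs.

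Entpd8, Xdh and Pnp rose less along the same score. Entpd8 in tip-high cells was 2.42 to 2.83 times its tip-low level. Xdh was 1.70 to 2.93 times higher, and in VApcMinL 1 and ApcMin 2 its middle part (404 and 216 CPM) was above its tip-high part (343 and 206). Pnp was 1.15 to 1.60 times higher, and its tip-high cells held 27.7 to 33.3% of its UMIs, about the share of cells they are. The fitted log2 differences of tip-high over tip-low cells were 6.87 (SE 0.24) for Slc28a2, 6.21 (0.27) for Nt5e, 6.19 (0.21) for Ada and 5.61 (0.24) for Enpp3. They were 1.53 (0.10) for Entpd8, 1.23 (0.14) for Xdh and 0.54 (0.10) for Pnp, with n = 4 libraries. The median of all 9862 genes was −0.03. Of the members, 4 of 7 passed 2, against 2.88% of genes tested, and these 4 ranked 3 (Slc28a2), 6 (Nt5e), 7 (Ada) and 9 (Enpp3) among all genes. Entpd8 ranked 492, Xdh 742 and Pnp 2186 of 9862. Of the genes tested, 55.1% were called, 27.5% higher and 27.6% lower. The value for Nt5e depends in part on how the fit treats the library at 0. Tip-high cells were shallower than tip-low cells in each library (for example 7606 against 12816 UMIs at the median in ApcMin 1) and had a higher median mitochondrial share (12.8 to 13.5% against 9.16 to 12.2%). The part of these measures in the split was not tested.

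**Figure D2:**
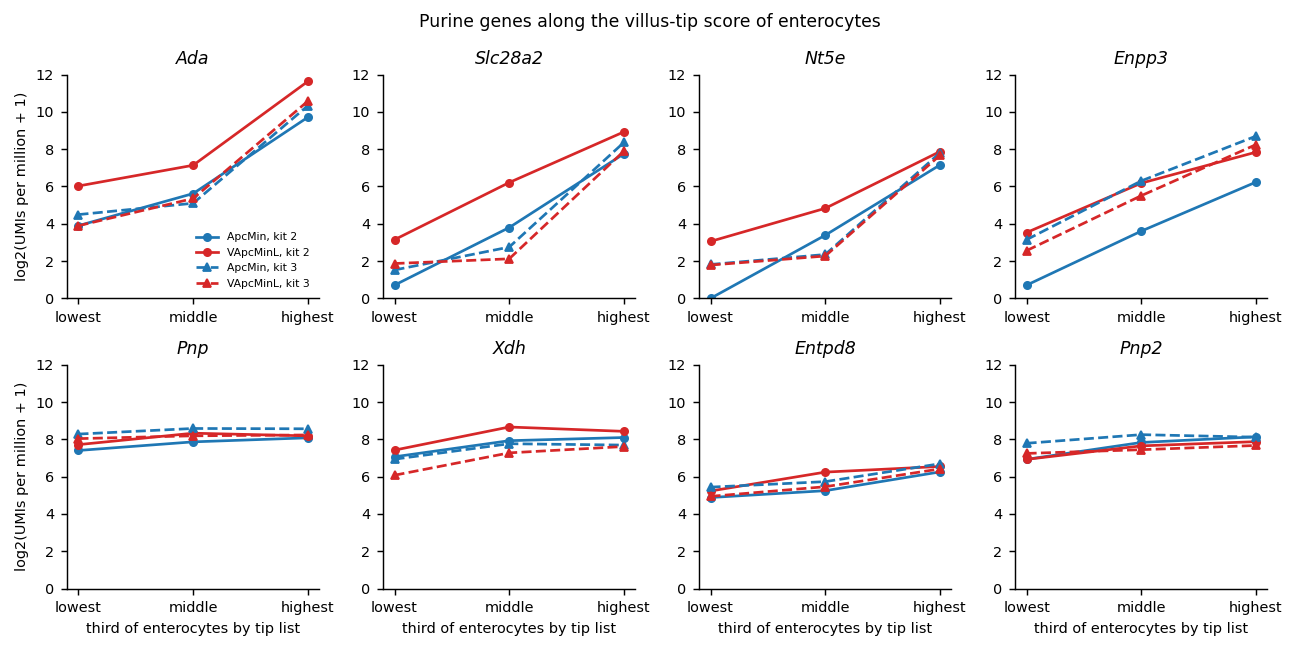
CPM, as log2(value + 1), of each gene and of the paralog Pnp2 in enterocytes of the lowest, middle and highest part of the villus-tip score, with 1 line per library (solid kit 2, dashed kit 3). Ada, Slc28a2, Nt5e and Enpp3 are highest in the highest part in all 4 libraries, while Pnp changes by 1.15 to 1.60 times between the lowest and the highest part.

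The genes differed in how many enterocytes held them. Each cell was thinned at random to 2000 UMIs, since detection depends on depth. A thinned UMI of Ada was found in 11.3, 30.7, 19.96 and 16.7% of enterocytes, of Slc28a2 in 4.46, 12.9, 10.5 and 8.57%, and of Nt5e in 3.87, 8.88, 7.87 and 7.39%. Enpp3 was found in 3.57, 17.5, 22.4 and 16.2% and Entpd8 in 9.23, 12.1, 13.4 and 9.75%. Pnp was found in 38.4, 42.5, 46.9 and 41.5% and Xdh in 36.6, 46.3, 32.9 and 23.2%, in each library a larger share than for the other 5 genes. In tip-high enterocytes the Ada share was 24.1, 60.7, 46.0 and 41.8%. The richest 10% of enterocytes held 85.0 to 98.1% of the thinned Ada UMIs, against 35.8 to 40.9% of those of Pnp and 78.2 to 100% of those of Entpd8. A gene found in no more than 10% of enterocytes reaches 100% by construction, so this measure depends on the detected share. Without thinning, an enterocyte with Ada held 11.7, 20.9, 19.3 and 19.8 UMIs of it on average, against 2.82, 3.74, 10.5 and 5.62 for Pnp.

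Enterocytes often carried several of the 7 genes at once. After thinning, 28.9% of enterocytes of ApcMin 1 had a UMI of at least 2 of them (95% exact binomial interval 24.1 to 34.0%), 51.5% of VApcMinL 1 (47.9 to 55.2%), 40.5% of ApcMin 2 (37.5 to 43.6%) and 31.3% of VApcMinL 2 (27.8 to 35.0%). The intervals cover counting error only. The share was 2.18 to 3.93% in adenoma cells, 1.71 to 5.52% in immature absorptive cells and 3.83 to 4.80% in immune cells, so no other gate reached the enterocyte range after thinning. Without thinning, 81.3, 96.9, 96.0 and 90.7% of enterocytes had at least 2 of the genes. The unthinned share was 44.4, 70.5, 83.4 and 68.6% in immature absorptive cells, 46.0, 61.6, 75.7 and 62.7% in adenoma cells and 12.9 to 23.2% in immune cells. Unthinned, enterocytes were above the other gates within each library, but immature absorptive cells of ApcMin 2 exceeded enterocytes of ApcMin 1. The share that independent detection of the 7 genes would give was not computed for any gate. Pnp and Xdh, each detected in more enterocytes than the other genes, add to the shares of enterocytes.

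Relative to independent detection, the pairs of the tip set (Ada, Slc28a2, Nt5e and Enpp3) stood highest. By count, Pnp and Xdh were the most frequent pair, in 454 cells, at 1.09 times the independent number. Slc28a2 and Nt5e were both detected in 162 thinned enterocytes, where independent detection within each library would give 21.8, a ratio of 7.43 (5.39 to 20.7 over the libraries). Ada was found with Nt5e at 3.84 and with Slc28a2 at 3.68 times the independent number, and Enpp3 with Nt5e, Slc28a2 and Ada at 2.86, 2.72 and 2.31 times. Entpd8 was found with these 4 at 1.52 to 2.12 times. Every pair with Pnp lay between 0.83 and 1.09. Xdh was found with Slc28a2 at 0.79 and with Nt5e at 0.86 times the independent number, and at 1.30 times with Enpp3. These pair ratios are descriptions of sparse counts and share the cells' depth after thinning.

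**Figure D3:**
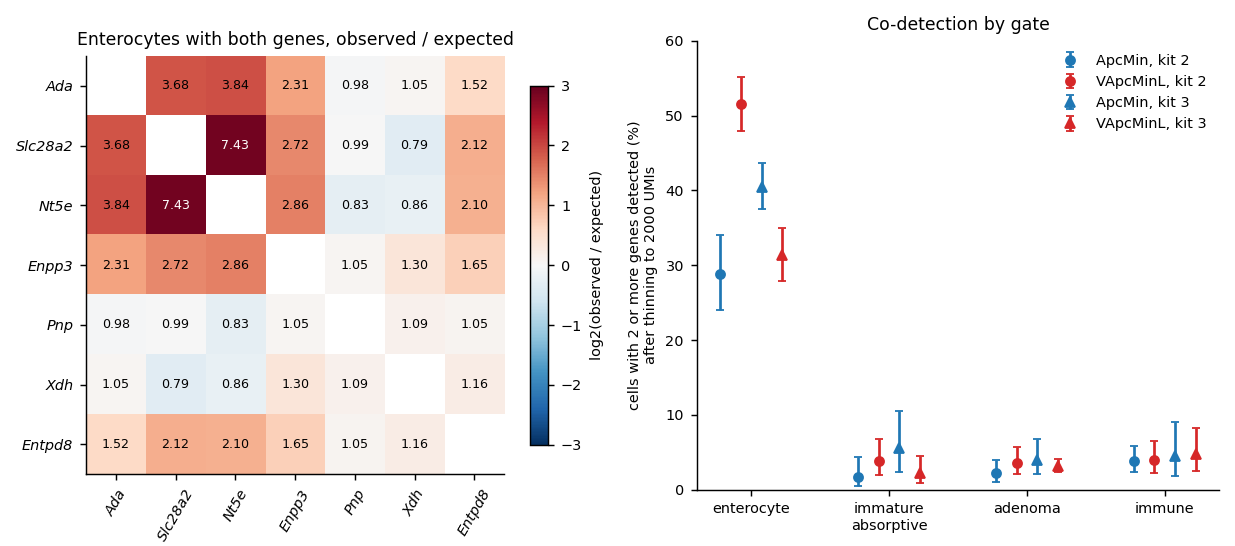
Left, cells with both genes divided by the number that independent detection would give, for each pair of genes in enterocytes thinned to 2000 UMIs, pooled over 4 libraries (color, log2 scale). Right, percent of cells with at least 2 of the 7 genes by gate, 1 point per library with its 95% exact binomial interval, where enterocytes reach 28.9 to 51.5% and the other gates stay at or under 5.52%.

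Immune cells held Nt5e at an enterocyte-like level. CD73 is also known as a surface enzyme of T cells. Nt5e had 17.5, 32.8, 50.4 and 56.2 CPM in the immune gate, and enterocytes stood at 0.977 to 2.53 times that level. It was the one gene of the 7 above the empty droplets in immune cells in all 4 libraries. T cells carried it, at 126, 106, 170 and 173 CPM on 31, 48, 25 and 54 UMIs, while the B and plasma gate had 9, 2, 0 and 1 UMIs. Slc28a2 had 52.7, 44.3, 94.97 and 28.8 CPM in T cells and lay above the empty droplets in ApcMin 1 and ApcMin 2. Ada had 80.3, 163, 135 and 128 CPM in the B and plasma gate, above the empty droplets in VApcMinL 2 alone. Enpp3, a surface marker of mast cells and basophils in other settings, had no UMI in the 69 cells of the mast gate, which allows up to 9.08 CPM. The immune marker list was at 0.04 to 0.42 per 10000 UMIs in the enterocyte gate.

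The 7 genes were set beside all other genes over 26 sums of gate and library. Profiles of log2(CPM + 1) were compared for 13875 genes, and the points share libraries, kits and depth, so the correlations are descriptions. The genes most like the mean of the 7 were Lct (lactase, Pearson r 0.925), Acot12 (0.924), Cml5 (0.922), Apoa4 (0.921) and Bbox1 (0.920). Ada and Slc28a2 were each other's nearest gene among all (r 0.942). Nt5e was nearest to Jak2 (0.850), Enpp3 to Apol7a (0.890), Pnp to Txnrd1 (0.930), Xdh to Cdr2 (0.959) and Entpd8 to Ush1c (0.948). Ada and Entpd8, by contrast, had r 0.418.

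Genes of purine synthesis went the other way. Of 61 other purine genes listed by role, 51 were tested between enterocytes and adenoma cells by edgeR with Benjamini-Hochberg adjustment, and 17 were higher, 26 lower and 8 not called at an adjusted p of 0.05. Over all genes tested, 35.8% were higher and 40.8% lower, and the median log2 difference was −0.69 for the list against −0.12 for all genes. Without TMM scaling, 11 of the list were higher and 32 lower, and over all genes the split moved from 4707 higher and 5368 lower to 2828 and 7759. The list was drawn up with earlier results of these data known.

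Of the 13 genes of de novo purine synthesis, 11 were lower in enterocytes and 2 higher (Prps1 and Adss), with a median log2 difference of −2.38. Ppat, the amidotransferase of the committed step, fell by 4.51 on the log2 scale (SE 0.39, adjusted p = 1.20e-05, edgeR), and Paics, which acts further down the pathway, fell by 4.21 (SE 0.33, adjusted p = 7.96e-06, edgeR). Each was lower in 4 of 4 libraries. Without TMM scaling, 11 were lower and 1 higher (Adss). Within enterocytes, 8 of 10 genes of de novo synthesis tested were lower in tip-high than in tip-low cells and 1 was higher, against 27.6% and 27.5% of all genes.

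Nucleoside uptake and purine catabolism included the steepest rises. Slc28a1, a concentrative carrier that prefers pyrimidine nucleosides, rose by 6.64 (SE 0.36, adjusted p = 1.08e-06, edgeR) in enterocytes over adenoma cells. Gda, which deaminates guanine to xanthine, rose by 6.28 (SE 0.19, adjusted p = 7.81e-08, edgeR), and Pnp2 by 4.21 (SE 0.20, adjusted p = 5.33e-07, edgeR). Among 6 other nucleoside transporters, 2 were higher and 4 lower, with or without TMM scaling. Among 10 other ectonucleotidases, 4 were higher and 5 lower, or 3 and 6 without TMM scaling. Over all genes tested 35.8% were higher and 40.8% lower, and nothing particular to either group is read from these counts. Entpd3, a surface ATP-cleaving enzyme, fell by 4.09 (SE 0.60, adjusted p = 2.93e-04, edgeR). Along the villus-tip score these genes moved far less than the tip set: Gda by 1.65, Pnp2 by 0.85 and Slc28a1 by 0.70 on the log2 scale, and the call for Slc28a1 was lost without TMM scaling (adjusted p = 0.0852, edgeR).

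**Figure D4:**
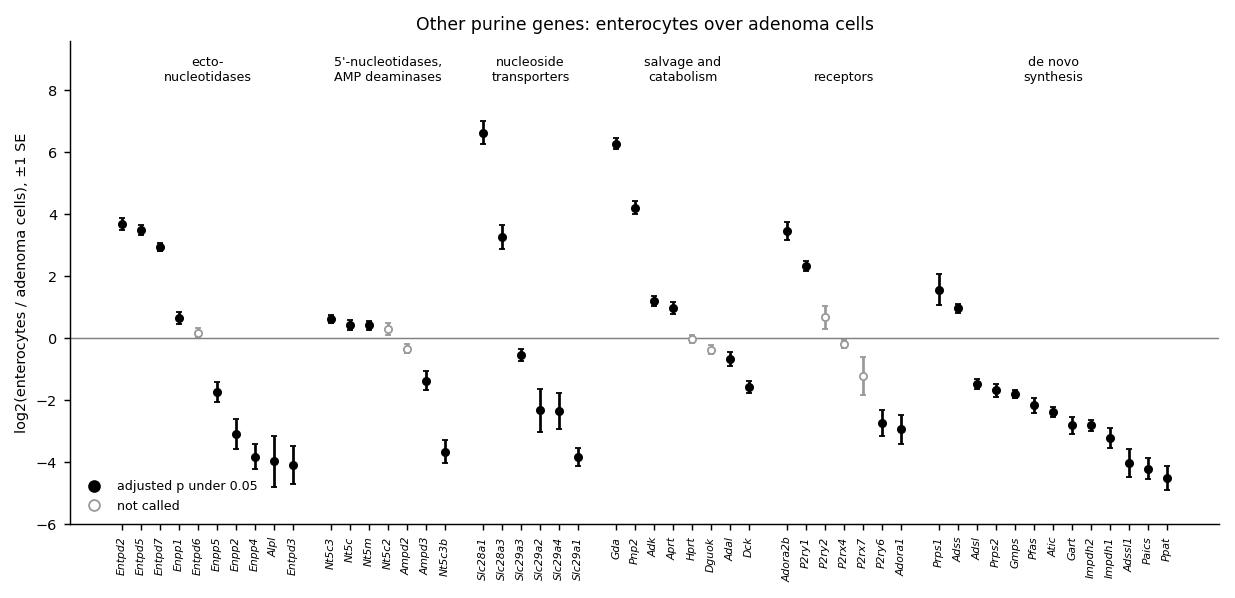
Log2 difference of enterocytes over adenoma cells for 51 other purine genes grouped by role, with bars of 1 SE (edgeR, n = 4 libraries, filled points adjusted p under 0.05). Slc28a1 and Gda lie highest, and 11 of 13 genes of de novo synthesis lie below 0.

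The last comparison asked whether deletion of Lef1 in the epithelium went with a difference in these genes. No member was called between the groups in any gate, where 0% of 10976 genes were called in enterocytes, 0.00921% in immature absorptive cells, 0% in adenoma cells and 0.0111% in immune cells (edgeR with the kit as a block). The gene called in immature absorptive and in immune cells was Xist. Xist was not called in enterocytes (log2 difference 9.34, SE 0.60, adjusted p = 0.0997, edgeR) or in adenoma cells (13.7, SE 0.83). Differences of that size missed the threshold, so the lack of calls does not show that the members were alike in both groups. In enterocytes 93 genes, and in adenoma cells 27, had an unadjusted p under 0.05. DESeq2 called 1 gene (Xist) in enterocytes and 2 (Xist and Tsix, its antisense RNA) in adenoma cells. No difference of a member given next passed the adjusted threshold.

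Ada showed the largest difference in enterocytes, and both libraries labelled VApcMinL (1046 and 415 CPM) were above both labelled ApcMin (237 and 381). The fitted log2 difference was 1.15 (SE 0.56, adjusted p = 1, edgeR), with 2.21 within kit 2 and 0.09 within kit 3. Ada was 1 of 7 members whose groups did not overlap, against 13.9% of genes tested. All 7 genes were higher in VApcMinL 1 than in ApcMin 1, whereas 1 of 7 was higher in VApcMinL 2 than in ApcMin 2. The direction was thus opposite between the kits for 6 of 7 genes, against 64.3% of all genes tested. Enpp3, for example, had 2.13 within kit 2 and −0.63 within kit 3, and Slc28a2 had 1.62 and −0.60. The villus-tip list of the enterocyte gate was at 64.9, 142, 87.3 and 80.5 per 10000 UMIs, higher in VApcMinL within kit 2 and lower within kit 3, as were 6 of the 7 genes. Its part in the differences was not tested.

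In immature absorptive cells, Slc28a2 was higher in the libraries labelled VApcMinL within both kits (1.89 and 0.81), with a fitted log2 difference of 1.42 (SE 0.56, adjusted p = 1.00, edgeR). These values rest on 4, 27, 13 and 38 UMIs and lie under the level of empty droplets. Slc28a2 and Nt5e were the 2 of 7 genes there whose groups did not overlap, against 14.7% of genes tested, and 4 of 7 had opposite directions in the kits, against 59.3%. In adenoma cells, Nt5e was lower within both kits (−0.49 and −0.53), with a fitted difference of −0.52 (SE 0.35, adjusted p = 1, edgeR), again under the level of empty droplets. Slc28a2, also under that level, was higher within both kits (0.71 and 0.29), with a fitted difference of 0.51 (SE 0.47). It was the 1 of 7 genes in adenoma cells whose groups did not overlap, against 10.4% of genes tested. There, 5 of 7 had opposite directions in the kits, against 69.1%. The adenoma gate rests on genes that the paper reports as lower after Lef1 deletion. In immune cells, where Villin-Cre does not act, Nt5e differed by 0.45 (SE 0.26, adjusted p = 0.954, edgeR), 0.75 within kit 2 and 0.14 within kit 3. T cells, which carried Nt5e, were 84 of 549, 153 of 378, 44 of 155 and 101 of 250 cells of this gate. Their share was larger in VApcMinL within both kits, and its part in the difference was not tested. Enpp3 and Entpd8 had too few counts in the immune gate to be tested. Of the other purine genes, none was called among 40 tested in enterocytes, 42 in immature absorptive cells, 49 in adenoma cells and 40 in immune cells.

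The share of enterocytes with at least 2 of the 7 genes was 34.7% ± 8.23 in ApcMin and 41.4% ± 14.3 in VApcMinL (SD, n = 2). VApcMinL minus ApcMin came to 6.74 percentage points, within the spread of the 4 libraries (2-sided exact permutation test, p = 0.667, where 0.33 is the smallest p possible). It was 22.7 points within kit 2 and −9.20 points within kit 3. Without VApcMinL 1 the difference turned to −3.38 points.

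**Figure D5:**
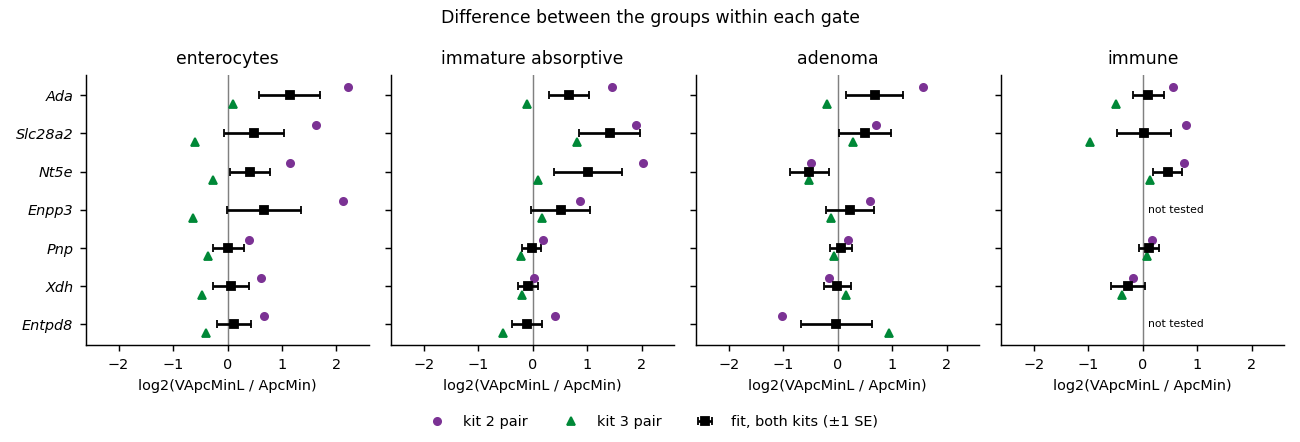
Log2 difference of libraries labelled VApcMinL over those labelled ApcMin for each gene in 4 gates, with the fit over both kits (squares, bars of 1 SE, edgeR, n = 2 libraries per group) and the difference within each kit pair (circles kit 2, triangles kit 3). In enterocytes the kit 2 points lie to the right of 0 for all 7 genes and the kit 3 points to the left for 6.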

How the data were processed

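Single-cell RNA-seq of 4 small intestinal adenoma libraries was used. The authors aligned and counted the reads with Cell Ranger against the 10x mouse reference (mm10) and deposited unfiltered UMI count matrices, 1 per library, as whole-number counts of UMIs per gene and barcode, not normalized. The study names version 2.1.1 of Cell Ranger, while the headers of the kit 3 matrices name 3.1.0. Gene tables of both kits were joined to 27573 genes, 27474 by identifier and 99 by symbol, among them Pnp, whose identifier differs between the tables. The deposited matrices held 44660305, 49009488, 98714025 and 128247396 UMIs.

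Barcodes with at least 2000 UMIs and at most 20% mitochondrial UMIs were kept (11297), which follows the mitochondrial limit of the study. Cells were gated by marker lists per 10000 UMIs. The enterocyte gate needed a list level of 150, and the immature absorptive gate 30 with less than 150 of the enterocyte list. Both needed less than 2 of the adenoma list. The adenoma gate needed 2, with at least 2 UMIs, less than 40 of the enterocyte and less than 30 of the immature absorptive list. All these needed 25 of the epithelial list and left out cells over the limit of another class. The immune gate needed less than 25 of the epithelial list. It also needed 15 of the immune, 20 of the T cell, 100 of the B and plasma, 30 of the myeloid or 30 of the mast list. No doublet caller was used except in an alternative (Scrublet in scanpy 1.11.5). Counts were summed per gate and library and tested with edgeR 4.0.16 quasi-likelihood fits (R 4.3.3, TMM scaling, minimum count 10, Benjamini-Hochberg over all genes tested, threshold 0.05), with the replicate number as block between groups and the library as block between gates. Kit and replicate number go together in the labels, which makes the number a batch, and the deviations of same-numbered libraries correlated (r 0.42, 0.51, 0.11 and 0.47 in the 4 gates). The fits were run on simulated counts with a dispersion (spread between libraries) of 0.02 and 200 genes changed by 1.5 on the log2 scale. The group fit in enterocytes recovered 181 of them with 5 false calls. The fit of enterocytes over adenoma cells recovered 193 with 8 false calls. The same dispersion was set for every gene, so recovery at the spread of the real libraries was not tested. DESeq2 1.42.0, no filter, no block, thinned cells, stricter cells, doubled gate thresholds and leaving out libraries were alternatives. Sums without TMM scaling were added after seeing the data. Detection shares used cells thinned to 2000 UMIs, which left out no cell, and their intervals cover counting error only.

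The 7 genes, the marker lists and the list of 61 other purine genes were chosen with earlier results of these data known. Besides the 7 genes, their paralogs, Lef1, the 3 largest rises and falls of other purine genes, the 5 genes most like the mean profile, the gene most like each member and genes called between groups are named. Promoters and gene positions came from RefSeq (GRCm38.p6) and GENCODE tables of the same build.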

Additional observations from a re-analysis of the deposited data

Results flagged for a closer look

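RNA of all 7 genes was counted in barcodes with 10 to 100 UMIs, which no comparison uses as cells. The lowest level among the 4 libraries was 82.8 CPM for Ada, 25.5 for Slc28a2, 10.9 for Nt5e, 16.1 for Enpp3, 105.0 for Pnp, 64.8 for Xdh and 12.2 for Entpd8. Their part in the counts of the cell gates was not tested.

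Xist was counted in such barcodes of the libraries labelled ApcMin, at 221.7 CPM in replicate 1 and 203.3 in replicate 2, while the gated cells of these libraries held no more than 0.714 CPM. The empty droplets of the libraries labelled VApcMinL held 628 and 206 CPM.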

How the results depend on the processing

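For the enterocyte contrasts over adenoma and over immature absorptive cells and the villus-tip split, 0 of 96, 0 of 96 and 0 of 72 alternative values of the members and Pnp2 changed sign. The log2 difference of Ada in enterocytes over adenoma cells ran from 4.72 to 4.94 with 1 library left out and from 4.13 to 5.33 under the other settings. The other settings of the villus-tip split included a list without Apoa4. Under them Slc28a2 ran from 5.61 to 7.03, Nt5e from 5.04 to 6.98, Ada from 5.24 to 6.21 and Enpp3 from 3.60 to 5.65. Entpd8 ran from 1.10 to 1.54, Xdh from 0.53 to 1.24 and Pnp from 0.40 to 0.57. The count of genes called between enterocytes and immature absorptive cells was 4501 with thinned cells, against 8086. Calls between the groups stayed few except without a filter on low counts, where 30 genes were called in enterocytes, 6 in immature absorptive cells, 1 in adenoma cells and 120 in immune cells. Xist, Tsix, Eif2s3y and Ddx3y were among those called in enterocytes without the filter. In enterocytes, DESeq2, at least 5000 UMIs, at most 10% mitochondrial UMIs, doubled thresholds, Scrublet and thinned cells each gave 1 call. Thinned cells gave 8 calls in immature absorptive cells and 1 in adenoma cells, and DESeq2 gave 2 in adenoma cells. In immune cells 5 genes were called at 5000 UMIs, 3 at 10% mitochondrial UMIs and 3 at doubled thresholds.

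Without the replicate block, 0 genes were called in each of the 4 gates, so the call of Xist in immature absorptive and immune cells was lost. Leaving out 1 library leaves a single kit pair in the blocked fit, which gives a value and no test. The difference in co-detection between the groups ran from −3.38 to 16.9 points with 1 library left out and from 2.94 to 5.34 under other settings.

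With 1 library left out, uncalled group differences changed sign as the kit pairs did, for example −0.63 to 2.13 for Enpp3 and −0.60 to 1.62 for Slc28a2 in enterocytes and −0.20 to 1.57 for Ada in adenoma cells. Other settings turned the sign of these uncalled differences. In enterocytes they were Pnp (−0.0093 without a filter, −0.0082 with DESeq2, −0.027 without the block), Xdh (−0.12 at 10% mitochondrial UMIs, −0.045 thinned) and Entpd8 (−0.054 thinned). In immature absorptive cells they were Pnp (0.0051 without a filter, 7.38e-04 at 10% mitochondrial UMIs, 0.42 thinned), Xdh (0.032 at 10% mitochondrial UMIs) and Entpd8 (0.17 thinned). In adenoma cells they were Enpp3 (−0.036 at doubled thresholds) and Xdh (0.028 at 10% mitochondrial UMIs). In immune cells it was Slc28a2 (−0.045 without the block, −0.079 with DESeq2, −0.012 at doubled thresholds, −0.16 thinned). The cause of these changes was not tested. The main limits are 2 libraries per group, each group with 1 library per kit, free RNA in every library, and counts under 40 UMIs for Slc28a2, Nt5e and Enpp3 in immature absorptive cells.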

Other observations

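Adora2b, Nt5c2 and Slc28a3 were named after their values were seen. Adora2b, a receptor for extracellular adenosine, was higher in enterocytes than in adenoma cells by 3.45 on the log2 scale (SE 0.29, adjusted p = 1.09e-05, edgeR) in 4 of 4 libraries. It was also higher in tip-high than in tip-low enterocytes by 2.05 (SE 0.30, adjusted p = 1.58e-04, edgeR), again in 4 of 4 libraries. Nt5c2, a cytosolic nucleotidase of IMP and GMP, differed by 0.29 between enterocytes and adenoma cells (SE 0.19, adjusted p = 0.205, edgeR) but rose by 2.25 along the villus-tip score (SE 0.16, adjusted p = 1.17e-06, edgeR). Slc28a3, a concentrative carrier of both purine and pyrimidine nucleosides, was higher in enterocytes than in adenoma cells by 3.27 (SE 0.39, adjusted p = 8.37e-05, edgeR) and fell by 2.19 between tip-low and tip-high cells (SE 0.33, adjusted p = 1.96e-04, edgeR). It thus ran against Slc28a2 along the score. These 3 genes kept their direction and their calls without TMM scaling in the villus-tip split.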
